A study of Mus musculus with 27 samples.

Results

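R55 was compared with vehicle in the cortex that received no injection: the 9 libraries came from the contralateral hemisphere of 5 mice given R55 and 4 mice given vehicle, 1 library per mouse, out of 27 libraries used from the series. Members were chosen by the labels alone, as every library labelled with R55 or vehicle and with the uninjected hemisphere. All mice, in both groups, were female 5xFAD mice on a C57BL/6 background, 16 weeks old, and a block of about 1 mm3 of cortex was dissected 24 h after a stereotaxic microinjection into the cortex of the other hemisphere. Mice of the R55 group received R55 at 10 mM, and control mice received the vehicle solution without drug. All libraries thus share the 5xFAD transgenes and an injection on the opposite side, and neither a wild-type mouse nor an untouched brain is part of the comparison. The comparison asks which transcripts differed on the side away from the drug. The methods of the study give 6 mice per treatment, and the libraries used here came from 4 and 5.

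5xFAD mice carry human amyloid precursor protein and presenilin transgenes with familial Alzheimer mutations, driven in neurons by the Thy1 promoter, and deposit amyloid early in life. R55 is a thiophene thiourea, a small molecule that acts as a pharmacological chaperone of retromer. Retromer is the endosomal coat that recovers membrane proteins, among them the amyloid precursor protein, its sorting receptor SorLA and glutamate receptors, from endosomes and returns them to the cell surface or the Golgi. A change in the stability of a protein complex need not appear in its transcripts, and RNA levels are what was measured here.

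Expression was deposited as FPKM, fragments scaled by gene length and by the library's total. The 9 libraries held 15932197 to 38077031 fragments on genes, with a median of 26564672. The dissected tissue carried the markers of cortex, with Slc17a7, the vesicular glutamate transporter of excitatory cortical neurons, at 473 to 708 FPKM. Myelin genes varied between blocks within the vehicle group, Mbp running from 192 FPKM in mouse L to 869.8 FPKM in mouse M. The library of vehicle mouse J stood apart from the other vehicle libraries, with Ttr, the choroid plexus transthyretin gene, at 1109 FPKM against 3.75 to 147 FPKM in the other 8 libraries. The 7 tested choroid plexus genes had a median log₂ fold change (R55 minus vehicle) of -0.46 with that library and 0.21 without it. Counts that move with that library are given with and without it where they are reported. In a block of whole tissue, fewer cells of a type and less RNA per cell cannot be told apart.

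Differences are given as log₂ fold changes, R55 minus vehicle, on the scale of log2(FPKM + 1), which understates changes of genes near 1 FPKM. No gene passed the test. Of 12976 tested genes, whose mean over the libraries reached 1 FPKM, 0 (0%) had an adjusted p-value under 0.05 in limma with Benjamini-Hochberg adjustment, the smallest adjusted p being 0.254. At an unadjusted p under 0.05, 875 genes (6.74%) were higher with R55 and 615 genes (4.74%) were lower. Limma voom on the fragments behind the FPKM also called 0 genes and placed 828 higher and 638 lower. With size factors in place of the plain library total, the balance turned to 593 higher and 822 lower, so that the share of higher genes went from 58.7% to 41.9%. Without vehicle mouse J, 1790 genes were higher and 729 lower, and without vehicle mouse L 570 genes were higher. The higher genes numbered 685 without vehicle mouse M and 785 without vehicle mouse AH. Without R55 mice P, AA, Q, R and AB in turn they numbered 1156, 656, 611, 1352 and 598. The median log₂ fold change over all tested genes was 0.045. In 184 genes (1.42%) every R55 library lay above every vehicle library, and in 177 genes (1.36%) every R55 library lay below. The values that follow are therefore a description of these 9 mice, to be read against those shares. When all 27 libraries were fitted together with the correlation between the hemispheres of a mouse modelled, 2 genes were called, Tsc22d3 with an adjusted p of 0.0313 and Fkbp7 with an adjusted p of 0.0344, both higher with R55.

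The length of the gene ran through the whole comparison. Short transcripts were higher and long transcripts lower with R55, with a Spearman correlation of -0.587 between the log₂ fold change and gene length across the 12976 genes, which are not independent replicates. In the shortest of 10 equal groups of genes, with a median length of 868 bp, the median log₂ fold change was 0.19, and 171 genes (13.2%) were higher against 7 lower at an unadjusted p under 0.05. In the longest group, with a median length of 8320 bp, the median was -0.17, and 378 genes (29.1%) were lower against 3 higher. The difference between the median log2 level of the longest and of the shortest group, each gene centred over the libraries, was 0.28 in vehicle mouse M. It was 0.31 in L, 0.29 in AH and -0.15 in J. In the R55 mice it was 0.11 in P, -0.14 in AA, -0.71 in Q, 0.056 in R and -0.23 in AB. R55 mouse Q thus had the lowest value and 3 of 4 vehicle mice the highest, while vehicle mouse J lay among the R55 mice. Leaving out Q left a correlation of -0.417, and leaving out J gave -0.624.

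**Figure D1:**
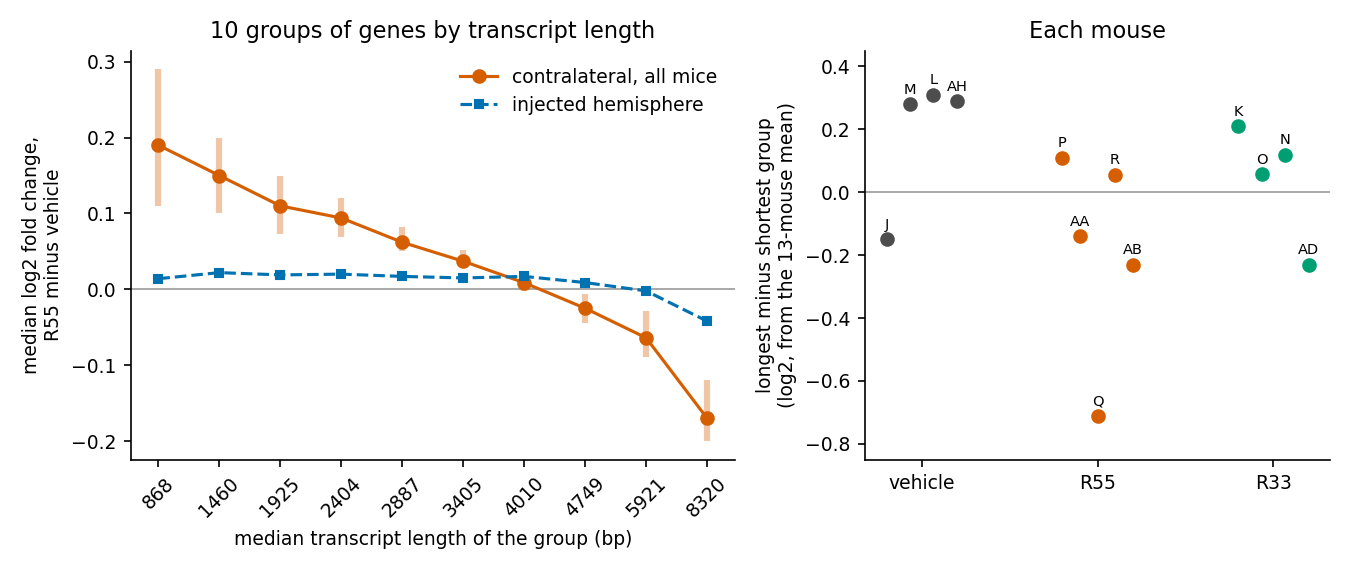
Left, median log₂ fold change (R55 minus vehicle, vertical axis) in 10 equal groups of tested genes by length (horizontal axis, bp) for the contralateral hemisphere, with bars for the range over the fits that leave out 1 mouse, and for the injected hemisphere. Right, the difference in median log2 level between the longest and the shortest group in each mouse, from the mean of 13 mice. The contralateral medians go from 0.19 in the shortest group to -0.17 in the longest, and R55 mouse Q stands lowest at -0.71.

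Because of that slope, the main genes and lists below are given also with their values after a smooth trend on gene length was removed from each library. After the removal, 682 genes (5.26%) were higher and 218 genes (1.68%) lower at an unadjusted p under 0.05. Of the 1490 genes below 0.05 as measured, 565 (37.9%) were also below it after the removal, 413 of them higher and 152 lower. The median length was 1890 bp among the higher genes, 7596 bp among the lower genes and 3149 bp among all. The cause of the slope was not tested.

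Log₂ fold changes of the drug target's own transcripts lay near 0. Vps35, the scaffold of retromer (chromosome 8, 85986024 to 86026431, minus strand, GRCm39), measured 65.7, 54, 58.2 and 52.4 FPKM in vehicle mice J, M, L and AH, and 63.5, 59.1, 60.6, 47.1 and 51 FPKM in R55 mice P, AA, Q, R and AB. The groups overlapped through most of their range. Its log₂ fold change was -0.037 with an SE of 0.11 and an adjusted p of 0.899. Of the other core subunits, Vps26a was at -0.0037, Vps26b at -0.038 and Vps29, the farthest from 0, at 0.084. None of the 4 core genes was below an unadjusted p of 0.05.

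Among 15 tested retromer partners, the sorting nexins and the actin-nucleating WASH complex, 2 were higher at an unadjusted p under 0.05 and none lower, with a median of 0.091. They were Snx5, a membrane-bending sorting nexin (0.22, SE 0.09), and Snx3, which recruits retromer to early endosomes (0.21, SE 0.098), and with the length trend removed they stood at 0.18 and 0.10, neither below 0.05. The count of higher partners was 5 without vehicle mouse J, 1 without R55 mouse Q and 0 without R55 mouse AA. The Vps10-domain receptors, cargo that retromer carries, had a median of -0.24 over 5 genes, with 2 lower at an unadjusted p under 0.05. After the removal the median was -0.12 with none below 0.05, and the count was 3 without vehicle mouse J and 0 without R55 mouse Q. Sorl1, which encodes SorLA, measured 24, 46.1, 54.2 and 39.4 FPKM in vehicle mice and 34.8, 30.9, 22.3, 30.8 and 23.7 FPKM in R55 mice. The low vehicle value is that of mouse J, and the log₂ fold change of -0.47 (SE 0.20) was -0.70 without it and -0.18 after the length trend was removed. Sorcs3 was at -0.35 and Sort1 at -0.24.

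The secretase genes showed no common direction. Of 11 tested genes of the amyloid precursor protein and its secretases, 1 was below an unadjusted p of 0.05, with a median of 0.0065. That gene was Psenen, the smallest subunit of γ-secretase, at 11.2, 9.15, 8.65 and 9.94 FPKM in vehicle mice and 11.4, 13.1, 13.4, 11.6 and 11.5 FPKM in R55 mice. The groups did not overlap, although the lowest R55 mouse lay just above vehicle mouse J, and the log₂ fold change was 0.30 (SE 0.094), or 0.14 after removal of the length trend. Bace1, the β-secretase, and Adam10, the main α-secretase, both stood at -0.14.

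The 4 Vps13 genes had the most uniform lower values among the trafficking lists. They encode very large bridge proteins that move lipids between membranes, and they share a name but no complex with retromer. Vps13d measured 6.68, 8.17, 8.46 and 8.21 FPKM in vehicle mice and 5.86, 5.92, 4.26, 6.05 and 5.27 FPKM in R55 mice. All R55 mice lay below all vehicle mice, also for Vps13c and, by a very narrow margin, for Vps13b. The lowest vehicle value of Vps13b was 3.91 FPKM and the highest R55 value 3.9 FPKM. Vps13a overlapped between the groups, at 4.63 to 6.43 FPKM in vehicle mice and 3.38 to 5.16 FPKM in R55 mice. The log₂ fold changes were -0.46 (SE 0.11) for Vps13d, -0.55 (SE 0.16) for Vps13c, -0.37 (SE 0.12) for Vps13b and -0.37 (SE 0.12) for Vps13a. All 4 were below an unadjusted p of 0.05 whichever mouse was left out, with a list median between -0.48 and -0.35. They are among the longest genes measured, with a median of 13738 bp, and with the length trend removed the median was -0.076 and none was below 0.05. Esyt1, which tethers the endoplasmic reticulum to the plasma membrane and is of ordinary length, was higher instead, at 3.34 to 4.1 FPKM in vehicle mice and 4.38 to 7.16 FPKM in R55 mice, with a log₂ fold change of 0.43 (SE 0.12) that was 0.44 after the removal.

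Tsc22d3, Dhrs7 and Fkbp7 shared the smallest adjusted p of 0.254. Tsc22d3 encodes the glucocorticoid-induced leucine zipper, a feedback gene of the stress hormone receptor, and lies on chromosome X from 139440091 to 139501408 (minus strand, GRCm39). It measured 14.2, 16.2, 13.6 and 19.3 FPKM in vehicle mice J, M, L and AH, and 27, 23.1, 24.9, 26.1 and 28 FPKM in R55 mice P, AA, Q, R and AB. The lowest R55 mouse stood above the highest vehicle mouse, and the means were 15.8 ± 2.57 FPKM (SD, n = 4) and 25.8 ± 1.9 FPKM (SD, n = 5). The log₂ fold change was 0.68 (SE 0.12, limma adjusted p = 0.254), between 0.62 and 0.78 whichever mouse was left out, and 0.67 after the length trend was removed. Over 12 tested genes that respond to glucocorticoids, 3 were higher and none lower at an unadjusted p under 0.05, with a median of 0.17. Without vehicle mouse J 5 were higher, and without R55 mouse Q 2. The 3 were Tsc22d3, the metallothionein gene Mt2 and Nfkbia, an inhibitor of NF-kB. Of the 12 genes 4 had a negative log₂ fold change, Cdkn1a at -0.24, Zbtb16 at -0.15, Fkbp5 at -0.057 and Sult1a1 at -0.022. The mean log2 level of the list lay higher in every R55 mouse than in any vehicle mouse, by a narrow margin between R55 mouse P and vehicle mouse J.

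Dhrs7, a short-chain dehydrogenase of the endoplasmic reticulum (chromosome 12, 72697124 to 72711729), measured 16.3, 16.6, 14.2 and 17.8 FPKM in vehicle mice and 22.7, 23, 26, 25 and 22.2 FPKM in R55 mice. Fkbp7, a prolyl isomerase of the endoplasmic reticulum (chromosome 2, 76493373 to 76503472), measured 2.12, 2.1, 1.84 and 2.02 FPKM in vehicle mice and 2.91, 4.04, 3.58, 3.26 and 2.9 FPKM in R55 mice. Neither gene overlapped between groups. Their log₂ fold changes were 0.53 (SE 0.089) and 0.52 (SE 0.089), both with an adjusted p of 0.254, or 0.40 and 0.37 with the length trend removed.

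Other genes separated the groups with smaller steps. Phyh, the peroxisomal enzyme that starts the breakdown of phytanic acid, ran from 57.8 to 62.4 FPKM in vehicle mice and from 73.8 to 82.4 FPKM in R55 mice, with a log₂ fold change of 0.36 and an SE of 0.07 (adjusted p = 0.357). Gpt, an alanine aminotransferase, was at 0.61, Cdc42ep5, an effector of the GTPase Cdc42, at 0.45, Pcp4l1, a relative of the calmodulin regulator Pcp4, at 0.43, Cgrrf1, a RING finger protein, at 0.41, and Prim2, a primase subunit, at 0.35. In all 6 of these genes every R55 mouse exceeded every vehicle mouse. After removal of the length trend they lay between 0.25 for Phyh and 0.52 for Gpt.

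**Figure D2:**
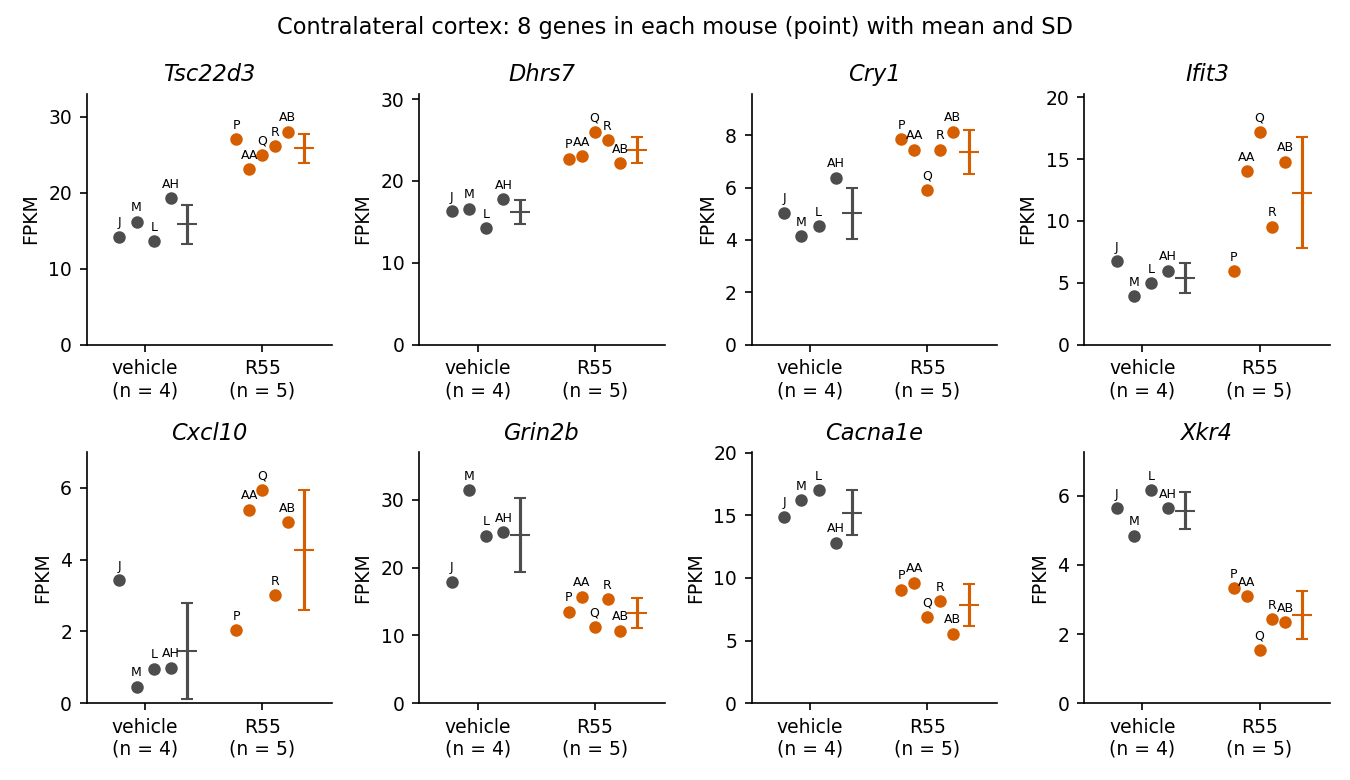
FPKM of 8 genes (vertical axes) in each mouse of the contralateral hemisphere (points with the mouse label) with the mean and SD of the 4 vehicle and the 5 R55 mice. Tsc22d3 runs from 13.6 to 19.3 FPKM in vehicle mice and from 23.1 to 28 FPKM in R55 mice, Ifit3 and Cxcl10 overlap between the groups, and Grin2b, Cacna1e and Xkr4 lie lower in every R55 mouse.

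Of 26 tested chaperones and unfolded protein response genes, 4 were higher and none lower at an unadjusted p under 0.05, with a median of 0.086. After removal of the length trend 2 were higher and the median was 0.047, against 0.038 over all genes. Herpud1, a component of the machinery that removes misfolded proteins, measured 23.5, 28.3, 28.8 and 30.4 FPKM in vehicle mice and 39.5, 34, 35.7, 37.1 and 37.2 FPKM in R55 mice. The groups did not overlap, and the log₂ fold change was 0.40 (SE 0.089), or 0.31 with the length trend removed. Atf4, the transcription factor of the integrated stress response, measured 112 to 118 FPKM in 4 R55 mice but 87.7 FPKM in mouse R, within the vehicle range of 75.1 to 92.7 FPKM. Its log₂ fold change was 0.35 (SE 0.11), that of its target Ddit3 was 0.30 (SE 0.11), and that of the chaperone partner Sdf2l1 was 0.29 (SE 0.13). After the removal they were 0.26, 0.15 and 0.15. The number of higher genes in the list ran from 2 to 8 as single mice were left out, and was highest without vehicle mouse J.

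Of the 3 metallothioneins, small metal-binding proteins that respond to zinc and to glucocorticoids, 1 was below an unadjusted p of 0.05, and all 3 were without vehicle mouse J. Mt2 measured 189.7, 141, 88.9 and 156 FPKM in vehicle mice and 199.5, 208, 267, 228 and 179 FPKM in R55 mice. Only R55 mouse AB lay below the highest vehicle mouse, J, and the log₂ fold change was 0.62 (SE 0.20). Mt1 stood at 0.41 and Mt3 at 0.31. These genes are among the shortest, with a median length of 542 bp, and after the length trend was removed the 3 stood at 0.43, 0.22 and 0.12 for Mt2, Mt1 and Mt3.

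The circadian clock turns on feedback: the factors CLOCK, NPAS2 and ARNTL drive Per and Cry repressors and the factors DBP, TEF and HLF through E-boxes, and DBP, TEF and HLF act in turn through D-boxes. Of 17 tested clock genes, 6 were higher and 2 lower at an unadjusted p under 0.05. The median was 0.24 as measured and 0.25 once the length trend was removed, and then 7 were higher and 1 lower. The 6 higher genes, Cry1, Per3, Nr1d2, Dbp, Tef and Hlf, belong to the repressor and output arms, and the 2 lower genes, Clock and Npas2, to the driving arm. The other Per, Cry and Nr1d genes were not below 0.05, with Per1 at -0.02, Per2 at 0.15, Cry2 at 0.041 and Nr1d1 at 0.0068. These genes and Dbp, Tef, Clock, Npas2 and Arntl are named here after their values were seen.

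The promoters of Cry1 and Per3 are shown to place these motifs. They come from RefSeq on GRCm38.p6 and run from 250 bases before to 50 bases after the annotated start, at chr10:85185005-85185304 for Cry1 and chr4:151044616-151044915 for Per3, both on the minus strand and written 5′ to 3′ in the direction of transcription. Capitals mark the E-box CACGTG in Cry1, 60 bases before the start, and the D-box TTANNTAA in Per3, which occurs 205 and 158 bases before it.
Cry1: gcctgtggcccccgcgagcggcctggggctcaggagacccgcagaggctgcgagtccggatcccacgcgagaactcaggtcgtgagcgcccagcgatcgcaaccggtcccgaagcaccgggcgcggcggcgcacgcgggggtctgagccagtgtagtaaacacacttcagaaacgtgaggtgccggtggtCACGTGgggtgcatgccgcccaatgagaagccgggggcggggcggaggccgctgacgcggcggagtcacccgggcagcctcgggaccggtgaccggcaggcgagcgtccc
Per3: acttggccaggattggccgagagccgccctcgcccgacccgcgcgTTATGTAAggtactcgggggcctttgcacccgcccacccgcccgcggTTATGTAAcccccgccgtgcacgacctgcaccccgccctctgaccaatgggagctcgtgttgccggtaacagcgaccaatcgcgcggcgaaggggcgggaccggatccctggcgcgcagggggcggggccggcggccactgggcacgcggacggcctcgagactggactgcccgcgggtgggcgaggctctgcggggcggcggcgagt
On both strands, the E-box occurs in 1957 of 27025 promoter windows of this length (7.24%) and the D-box in 1642 (6.08%). Of the 8 clock promoters read, those of Cry1, Per3, Nr1d2, Dbp, Hlf, Tef, Clock and Npas2, 3 hold either motif in this window, the third being Tef with an E-box 127 and a D-box 174 bases before its start. These are matches of letters and no binding was measured.

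Cry1, a core repressor, measured 5.04, 4.14, 4.53 and 6.38 FPKM in vehicle mice J, M, L and AH, and 7.84, 7.45, 5.92, 7.44 and 8.13 FPKM in R55 mice P, AA, Q, R and AB. Only R55 mouse Q fell within the vehicle range, under vehicle mouse AH. The log₂ fold change was 0.48 (SE 0.13, adjusted p = 0.366). Nr1d2, a nuclear receptor that represses Arntl, was at 0.41 (SE 0.11), Hlf at 0.54 (SE 0.19) and Per3 at 0.43 (SE 0.16), and the 4 stood between 0.46 and 0.64 after removal of the length trend.

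Dbp, a strongly rhythmic output factor, spread widely within the vehicle group. It measured 12.3, 15.6, 30.5 and 46.9 FPKM in vehicle mice J, M, L and AH and 36.2, 40.2, 45.7, 43.3 and 46.5 FPKM in R55 mice. Vehicle mouse AH lay above every R55 mouse. The log₂ fold change was 0.84 (SE 0.31), and 0.56 without mouse J. In the other direction, Clock measured 9.78 to 10.2 FPKM in vehicle mice and 6.63 to 9.49 FPKM in R55 mice without overlap, with a log₂ fold change of -0.26 (SE 0.11) that was 0.0011 after the length trend was removed, Clock being 9925 bp long. Npas2 was at -0.21 (SE 0.084) and kept -0.17 after the removal, and Arntl was at -0.25 (SE 0.16). Without vehicle mouse J the median of the clock list dropped from 0.24 to 0.018, with 3 genes higher and 1 lower, and without vehicle mouse AH it was 0.38. The time of day at which each mouse was dissected is not given in the sources used here.

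Interferon-response genes are induced through interferon-stimulated response elements when cells sense nucleic acids or interferon, and microglia of amyloid-bearing cortex express them. All 23 tested genes of the list had a positive log₂ fold change, as 7906 of all 12976 genes did, with a median of 0.29, or 0.20 after removal of the length trend. At an unadjusted p under 0.05, 4 were higher, Ifit3, Ifit1, Usp18 and Oas1a, and none was lower.

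The promoters of Ifit3, Ifit1 and Cxcl10 are printed because these genes carried the largest differences. They come from the same RefSeq set on GRCm38.p6, at chr19:34583279-34583578 (plus strand), chr19:34640639-34640938 (plus strand) and chr5:92348840-92349139 (minus strand). Capitals mark GAAANNGAAA, the core of the interferon-stimulated response element, or its reverse complement TTTCNNTTTC. The cores begin 156 and 122 bases before the start in Ifit3, 104 and 85 in Ifit1 and 213 in Cxcl10.
Ifit3: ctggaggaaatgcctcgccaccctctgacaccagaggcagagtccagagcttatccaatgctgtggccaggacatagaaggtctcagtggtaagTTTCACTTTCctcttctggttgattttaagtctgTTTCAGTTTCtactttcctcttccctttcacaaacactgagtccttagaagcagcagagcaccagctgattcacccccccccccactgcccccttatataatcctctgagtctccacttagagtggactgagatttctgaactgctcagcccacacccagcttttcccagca
Ifit1: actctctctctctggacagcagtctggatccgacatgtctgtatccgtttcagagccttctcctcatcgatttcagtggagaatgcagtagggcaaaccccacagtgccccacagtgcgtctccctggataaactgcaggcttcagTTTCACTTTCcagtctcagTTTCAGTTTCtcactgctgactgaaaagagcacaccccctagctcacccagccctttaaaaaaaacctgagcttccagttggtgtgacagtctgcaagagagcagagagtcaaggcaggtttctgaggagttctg
Cxcl10: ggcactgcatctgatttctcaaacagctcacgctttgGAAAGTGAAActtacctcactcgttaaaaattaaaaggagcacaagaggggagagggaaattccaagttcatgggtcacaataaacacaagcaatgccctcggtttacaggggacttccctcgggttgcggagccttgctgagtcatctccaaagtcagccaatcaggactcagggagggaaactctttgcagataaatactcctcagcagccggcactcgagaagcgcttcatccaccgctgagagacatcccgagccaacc
On both strands the core occurs in 943 of 27025 windows (3.49%), and it was found in all 4 of the windows read, the fourth being Oas1a. The genes read were chosen as interferon-induced and for their differences in these data, so the count is no test of an interferon response. The marked stretches are matches of letters, and no binding was measured. The window of Usp18 was not read.

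Ifit3, an interferon-induced antiviral effector, measured 6.73, 3.9, 4.96 and 5.99 FPKM in vehicle mice J, M, L and AH and 5.92, 14, 17.2, 9.54 and 14.8 FPKM in R55 mice P, AA, Q, R and AB. R55 mouse P lay within the vehicle range and the other 4 R55 mice lay above it. The log₂ fold change was 1.0 (SE 0.28, adjusted p = 0.366), and 0.92 after removal of the length trend. Its near-identical copy Ifit3b shares reads with it, so the level is uncertain.

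Ifit1 measured 1.72 to 2.3 FPKM in vehicle mice and 1.88, 4.63, 7.05, 2.96 and 4.36 FPKM in R55 mice, a log₂ fold change of 0.74 (SE 0.24). Usp18, which limits interferon signalling, was at 0.55 (SE 0.24), and Oas1a, which senses double-stranded RNA, at 0.37 (SE 0.17). R55 mouse P again had the lowest Ifit1 value of its group, and without it the list median was 0.46 with 15 genes higher. Without R55 mouse AA the median was 0.15 with 2 genes higher, and without vehicle mouse J it was 0.41 with 8 genes higher. Over all tested genes, 1156 were higher without P, 656 without AA and 1790 without J, against 875 with all mice.

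Among 17 tested cytokine, chemokine and NF-kB genes, 3 were higher and none lower at an unadjusted p under 0.05, with a median of 0.084, and 1 was higher without R55 mouse Q. Cxcl10, a chemokine that interferon induces (chromosome 5, 92494497 to 92496748, GRCm39), measured 3.42, 0.456, 0.955 and 0.986 FPKM in vehicle mice and 2.04, 5.39, 5.93, 3 and 5.04 FPKM in R55 mice. Vehicle mouse J exceeded R55 mice P and R, and the log₂ fold change of 1.17 (SE 0.33) was 1.5 without mouse J. Nfkbia and Relb, a feedback inhibitor and a subunit of NF-kB, both stood at 0.25. After removal of the length trend the 3 genes were at 1.04, 0.15 and 0.18.

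Identity genes of microglia lay near the median of all genes. None of 12 homeostatic microglia genes was below an unadjusted p of 0.05 (median 0.06), and of 19 genes of disease-associated microglia only Spp1 was, with a list median of 0.021, and none was without R55 mouse AA or without R55 mouse Q. Trem2, the microglial lipid receptor, stood at 0.019 and Cst7, a cystatin of plaque-associated microglia, at -0.07. Spp1, osteopontin, measured 6.86, 5.41, 2.95 and 8.86 FPKM in vehicle mice and 7.41, 38.5, 14.6, 6.02 and 12.5 FPKM in R55 mice, and the log₂ fold change of 1.05 (SE 0.45) was 0.67 without the highest mouse, AA. Hmox1, heme oxygenase, followed the same pattern, at 15.3 FPKM in AA and 4.48 to 6.82 FPKM in the other R55 mice, with a log₂ fold change of 0.56 (SE 0.24) that was 0.30 without AA. Of 9 complement genes none was below 0.05. Gfap, the intermediate filament of reactive astrocytes, stood at 0.27 (unadjusted p = 0.45, limma).

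Of 18 tested genes of mural cells, fibroblasts and matrix, 3 were higher and none lower at an unadjusted p under 0.05, with a median of 0.32, or 0.22 after removal of the length trend. The 3 were Acta2, Col1a1 and Col1a2, and 7 of the 18 had a negative log₂ fold change, among them the basement membrane collagens Col4a1 at -0.35 and Col4a2 at -0.37. The count of higher genes was 1 without vehicle mouse M, 7 without vehicle mouse J and 8 without R55 mouse P. Of 16 endothelial genes 12 had a negative log₂ fold change, with none below 0.05. The largest log₂ fold change of all 12976 genes was that of Fmod, a collagen-binding proteoglycan, at 1.24 (SE 0.50). It measured 3.6, 0.925, 1.59 and 2.97 FPKM in vehicle mice and 4.75, 10.4, 10.2, 1.33 and 11 FPKM in R55 mice, with R55 mouse R inside the vehicle range. Ogn, another matrix proteoglycan, was likewise low in mouse R, at 0.902 FPKM, with a log₂ fold change of 1.01 (SE 0.44). Mgp, which inhibits calcification of matrix, measured 14.8 to 37.9 FPKM in vehicle mice and 27.3 to 79.5 FPKM in R55 mice, a log₂ fold change of 1.0 (SE 0.33). Col1a2, a collagen chain, was at 0.71, Col1a1 at 0.55 and Acta2, the smooth muscle actin, at 0.49. Alas2, the heme synthesis enzyme of red cells, was at 0.67 (SE 0.24) and no longer below 0.05 without vehicle mouse J, while the 4 haemoglobin genes of the list are listed at 0 in all 9 libraries. How far the amount of meninges or blood in each block enters these values was not tested.

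Grin2b, the NMDA receptor subunit with the longest transcript of its family, measured 17.9, 31.4, 24.7 and 25.2 FPKM in vehicle mice J, M, L and AH and 13.5, 15.7, 11.3, 15.3 and 10.7 FPKM in R55 mice P, AA, Q, R and AB. The groups did not overlap, and the log₂ fold change was -0.84 (SE 0.17, adjusted p = 0.357), or -0.34 after removal of the length trend. Grin2a was at -0.41, and -0.03 after the removal. The median over 6 NMDA receptor genes was -0.22 as measured and -0.049 after it.

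AMPA receptor genes, cargo of retromer at synapses, held no gene below an unadjusted p of 0.05 among 12 tested, and 3 lower genes without vehicle mouse M. Gria1 was at -0.48 with an SE of 0.30 and Gria3 at -0.21 with an SE of 0.11, and Gria1 varied from 54 to 156 FPKM within the vehicle group. Of 12 GABA-A receptor genes 2 were lower and 1 higher. Gabrb1 measured 12.6 to 14.5 FPKM in vehicle mice and 7.56 to 9.84 FPKM in R55 mice, a log₂ fold change of -0.59 (SE 0.12) that was -0.23 after the length trend was removed. Gabrd, the short δ subunit of extrasynaptic receptors, was higher at 0.51 (SE 0.19), and no gene of the list was higher without vehicle mouse J. Among 7 metabotropic receptors, Grm5 was at -0.58 and Grm4 at 0.28.

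Voltage-gated calcium channels had 5 of 8 pore-forming subunits lower at an unadjusted p under 0.05 and none higher, with a median of -0.38. Cacna1e, the R-type channel (chromosome 1, 154266477 to 154760247, GRCm39), measured 14.9, 16.2, 17 and 12.8 FPKM in vehicle mice and 9.05, 9.63, 6.89, 8.14 and 5.55 FPKM in R55 mice. All R55 mice lay below all vehicle mice, and the log₂ fold change was -0.89 (SE 0.19, adjusted p = 0.357). Cacna1d and Cacna1c, the L-type channels, were at -0.40 and -0.43, Cacna1b, the N-type channel, at -0.36 and Cacna1h, a T-type channel, at -0.40. Without vehicle mouse L 3 of the 8 were lower. The list, with a median length of 9564 bp, had a median of -0.082 after removal of the length trend with 2 genes still lower, and Cacna1e was then at -0.56. Of 10 genes of calcium release and uptake in the endoplasmic reticulum, 1 was lower. It was the release channel Ryr2, at -0.61 (SE 0.14), and -0.21 after the removal. Sodium channels Scn2a and Scn3a were at -0.48 and -0.42.

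Of 13 scaffold genes of the presynaptic active zone 6 were lower at an unadjusted p under 0.05, and of 19 postsynaptic density genes 7, with none higher in either list. Without R55 mouse Q the counts were 4 and 1. After removal of the length trend each list held 1 higher gene, with 2 lower in the active zone list and 1 lower in the postsynaptic list. Pclo and Bsn, the giant organizers of the active zone, were at -0.72 (SE 0.17) and -0.62 (SE 0.18), Erc2 at -0.44 and Erc1 at -0.32. Dlgap2, a postsynaptic protein, was at -0.37. The list medians of -0.22 and -0.13 became -0.045 and -0.041 after removal of the length trend. Proteins of synaptic vesicles, which are encoded by shorter genes, had Vamp1 higher and Napb lower of 20, with a median of -0.027.

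Adhesion and guidance receptors followed length as well. Of 18 plexins and guidance receptors 10 were lower and none higher, with a median of -0.33 and, after removal of the length trend, -0.10 with 1 gene lower. Dcc, the netrin receptor, measured 1.87 to 2.79 FPKM in vehicle mice and 1.14 to 1.46 FPKM in R55 mice, with a log₂ fold change of -0.56 (SE 0.11). Robo1, a Slit receptor, was at -0.47 and Plxna4, a semaphorin receptor, at -0.46. Of 12 giant cadherins, teneurins and latrophilins 7 were lower, with a median of -0.46. Tenm1, a teneurin on chromosome X, measured 3.38, 1.86, 3.31 and 2.48 FPKM in vehicle mice and 1.62, 1.05, 0.705, 0.709 and 0.627 FPKM in R55 mice. Its log₂ fold change was -0.95 (SE 0.23), and -0.75 after the removal, while Tenm4 went from -0.54 to -0.19. Among endocytic receptors, Lrp1b was at -0.60, Lrp1, which binds ApoE, at -0.54, Lrp8 at -0.39 and Lrp6 at -0.22.

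Lists of giant housekeeping proteins had high shares of lower genes too. Of 10 giant ubiquitin ligases 9 were lower at an unadjusted p under 0.05, 5 of them without overlap, with Mycbp2, a ligase of axons, at -0.52 (SE 0.13) and Hectd4 at -0.45 (SE 0.12). Of 6 PI3K-related kinases 5 were lower, among them Trrap, a scaffold of acetyltransferase complexes, at -0.46, with a list median that was -0.42 at a pseudocount of 0.1. Of 10 histone methyltransferase genes 7 were lower, with Kmt2c at -0.43, and of 16 cytoskeletal linkers 10 were lower, with Map1b at -0.60, Macf1 at -0.50 and Dst at -0.47. Without R55 mouse Q 5 of the linkers were lower, and after removal of the length trend 1 was lower and 3 were higher. The list medians of -0.43, -0.27, -0.34 and -0.29 became -0.11, -0.0023, -0.02 and 0.019 once the length trend was removed, and Dst then stood at 0.09. Pcnx, Peak1 and Nexmif, other long genes without overlap between the groups, were at -0.46, -0.50 and -0.58.

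Xkr4 differed from these genes. It encodes a membrane protein of the phospholipid scramblase family (chromosome 1, 3276124 to 3742031, minus strand, GRCm39), and its length as counted, 3634 bp, is ordinary. It measured 5.64, 4.85, 6.16 and 5.64 FPKM in vehicle mice J, M, L and AH and 3.32, 3.1, 1.54, 2.43 and 2.35 FPKM in R55 mice P, AA, Q, R and AB. The means were 5.57 ± 0.538 FPKM (SD, n = 4) and 2.55 ± 0.7 FPKM (SD, n = 5), with no overlap. The log₂ fold change was -0.91 (SE 0.19, adjusted p = 0.357), and -0.90 after the length trend was removed. Zfp697, a zinc finger gene of 5164 bp, was at 4.81 to 6.13 FPKM in vehicle mice and 3.51 to 3.91 FPKM in R55 mice, a log₂ fold change of -0.40 (SE 0.089) that was -0.33 after the removal. The lowest log₂ fold change of all, -1.0 for the small nucleolar RNA Snord68, and the -0.94 of Scarna2 rest on a median of 2 fragments per library in each gene.

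**Figure D3:**
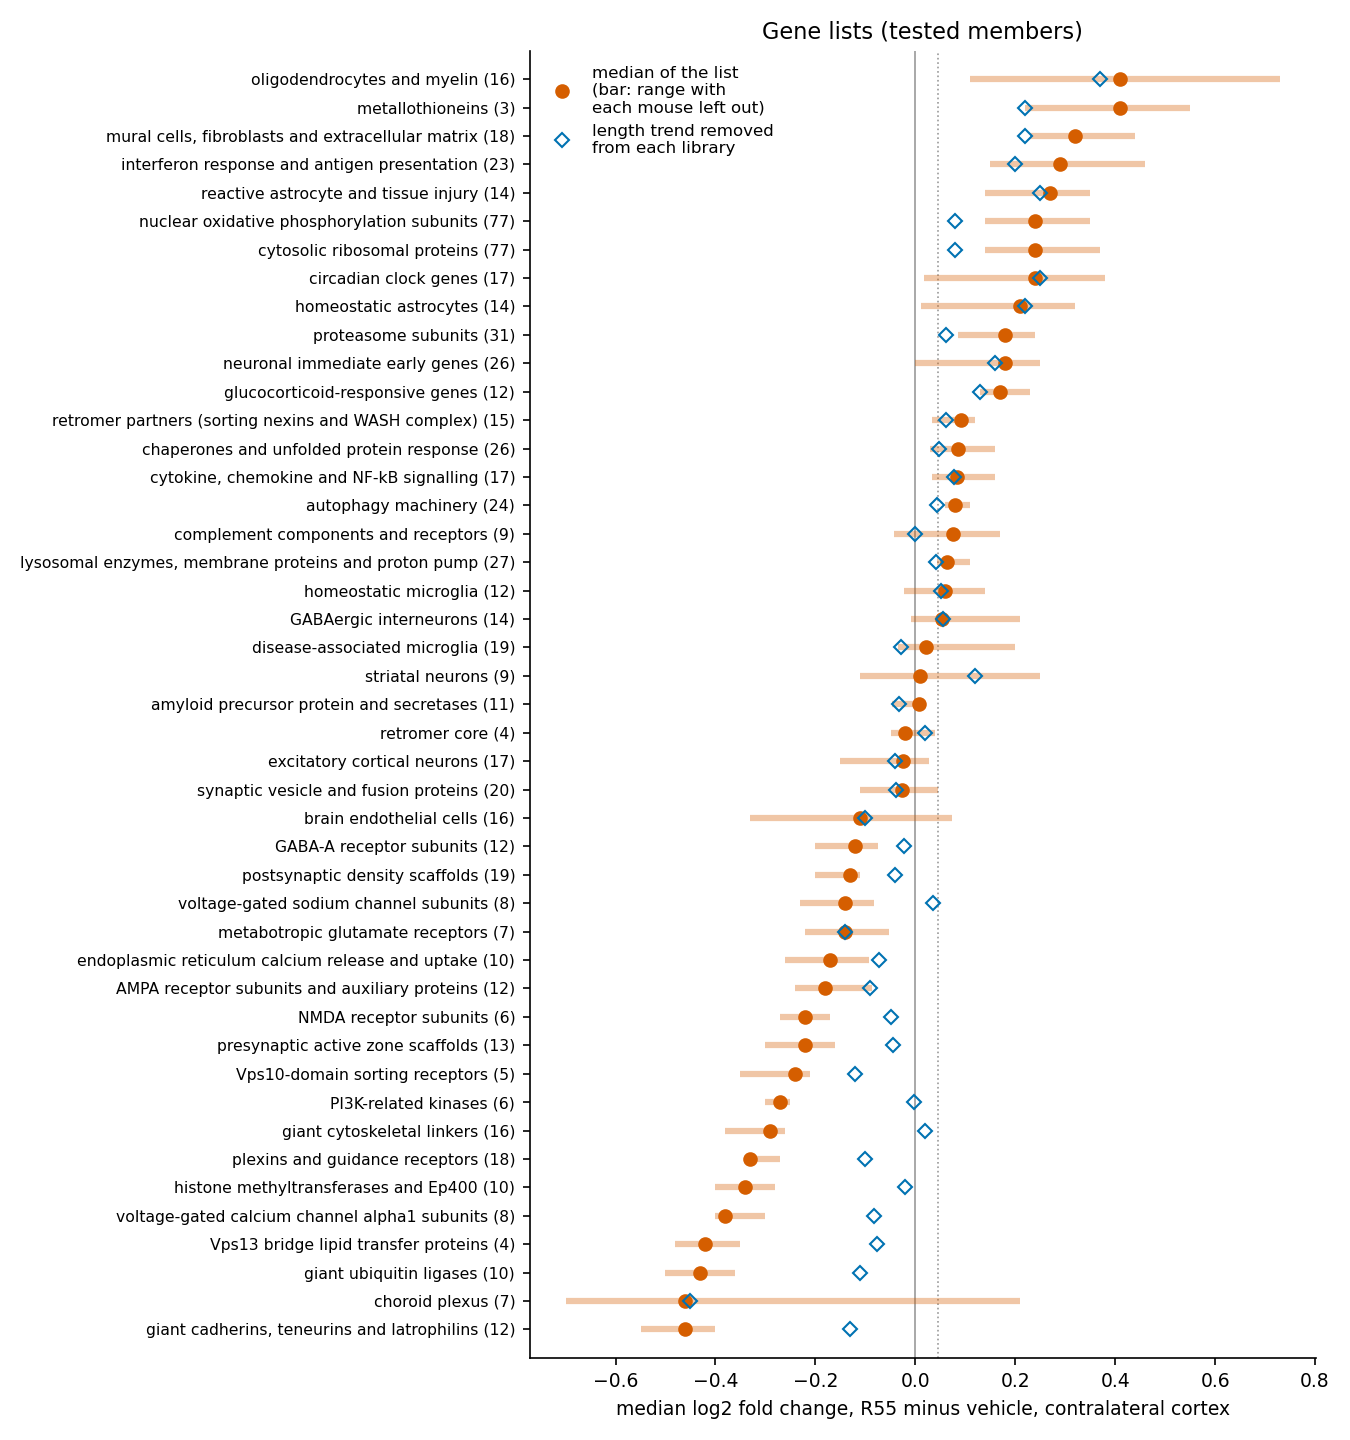
Median log₂ fold change (R55 minus vehicle, contralateral hemisphere, horizontal axis) of each gene list, as measured (circles, with bars for the range over the fits that leave out 1 mouse) and with the length trend removed (diamonds). The number of tested genes follows each name, and the dotted line is the median of all genes, 0.045. The calcium channel list moves from -0.38 to -0.082, whereas the clock list stands at 0.24 and 0.25.

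All 77 tested cytosolic ribosomal protein genes and all 77 nuclear genes of oxidative phosphorylation had a positive log₂ fold change, each list with a median of 0.24, and so had all 31 proteasome genes, with a median of 0.18. After removal of the length trend the medians were 0.08, 0.08 and 0.062. At an unadjusted p under 0.05, 0 ribosomal, 8 oxidative phosphorylation and 1 proteasome genes were higher. Rps14, a protein of the small ribosomal subunit, measured 381, 309.8, 251 and 283 FPKM in vehicle mice and 285, 374, 479.7, 365 and 420.1 FPKM in R55 mice, with vehicle mouse J among the R55 values. Without mouse J 53 ribosomal and 55 oxidative phosphorylation genes were higher, with medians of 0.37 and 0.35. Without R55 mouse Q the counts were 0 and 1, and both medians were 0.14. The count of higher proteasome genes ran from 0 to 15 as single mice were left out, and was 15 without R55 mouse R. Sdhc, a membrane anchor of succinate dehydrogenase, separated the groups also with mouse J, at 66.7 to 85.3 FPKM in vehicle mice and 85.4 to 97.9 FPKM in R55 mice, though by a narrow margin.

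Pvalb, the calcium buffer of fast-spiking interneurons, measured 34.8, 57.2, 38.5 and 64.5 FPKM in vehicle mice and 80.7, 84, 74.1, 71.8 and 110.2 FPKM in R55 mice. The groups did not overlap, and the log₂ fold change was 0.81 (SE 0.23, adjusted p = 0.366), or 0.66 after removal of the length trend. Vamp1, the vesicle fusion protein enriched in the same neurons, was at 0.70 (SE 0.23) and 0.69. Of 14 interneuron genes Pvalb was the only higher one and 2 were lower, with a median of 0.053. Those were Reln, a long gene of another interneuron class, at -0.49, and Erbb4, a neuregulin receptor, at -0.35. Without vehicle mouse AH 5 of the 14 were higher, as were 785 of all tested genes. After removal of the length trend Pvalb alone was higher and none was lower. Of 17 excitatory neuron genes none was below 0.05, with a median of -0.025.

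Of 27 lysosomal genes and 24 autophagy genes, 1 each was higher and none lower at an unadjusted p under 0.05, Tfeb and Map1lc3b. Without vehicle mouse J 4 lysosomal genes were higher and 1 lower, and 5 autophagy genes were higher. Tfeb, a transcription factor that drives lysosomal genes, was at 0.37 (SE 0.12). Map1lc3b, which encodes the autophagosome protein LC3B, measured 65 to 75.5 FPKM in vehicle mice and 77.9 to 93.2 FPKM in R55 mice, a log₂ fold change of 0.28 (SE 0.084) that was 0.23 after removal of the length trend. Atg7, an enzyme needed to attach LC3 to lipid, was at 0.11 (SE 0.064). Ifi30, a lysosomal thiol reductase that interferon induces, was at 0.55 (SE 0.20).

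All 16 tested oligodendrocyte genes had a positive log₂ fold change, with a median of 0.41, and none was below an unadjusted p of 0.05. Without vehicle mouse M 13 of them were higher, as were 685 of all tested genes. Mbp measured 453, 869.8, 192 and 558 FPKM in vehicle mice and 693, 804, 602, 535 and 687 FPKM in R55 mice. Vehicle mouse M exceeded every R55 mouse and vehicle mouse L lay far below, so that the list median ran from 0.11 to 0.73 as single mice were left out. Of 14 homeostatic astrocyte genes 1 was higher and none lower at an unadjusted p under 0.05. The list median was 0.21, or 0.22 after removal of the length trend, and 3 genes had a negative log₂ fold change. The higher gene was Aldh1l1, a folate enzyme of astrocytes, at 0.47 (SE 0.17). Slc1a2 was at -0.34, Slc1a3 at 0.013 and Aqp4 at 0.10. Without vehicle mouse L none of the list was higher, and without vehicle mouse J 5 were, against 570 and 1790 of all tested genes.

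**Figure D4:**
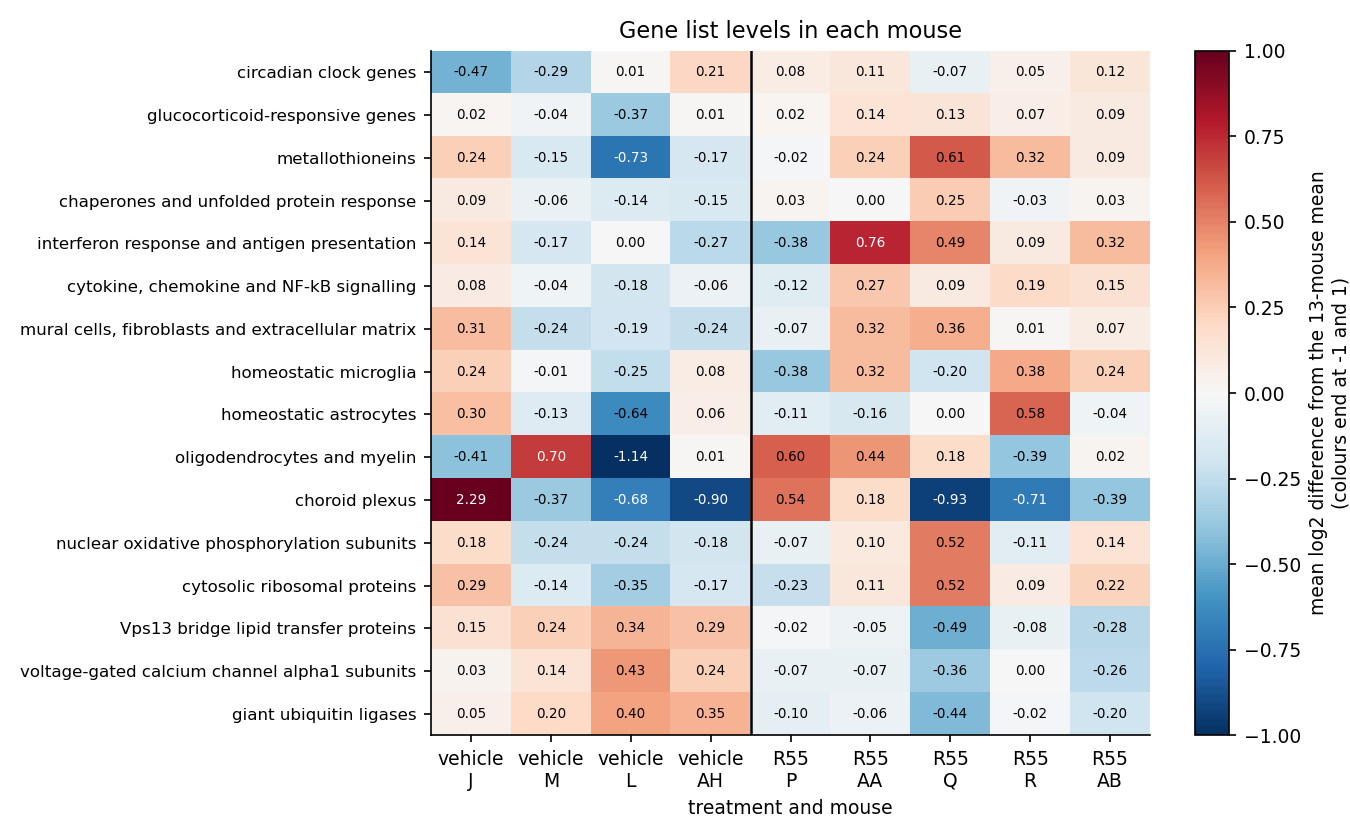
Mean log2 level of gene lists (rows) in each vehicle and R55 mouse (columns) of the contralateral hemisphere, as the difference from the mean of 13 mice, printed in each cell. The colours end at -1 and 1. The Vps13 list lies lower in every R55 mouse than in any vehicle mouse, the myelin list overlaps, and choroid plexus genes stand at 2.29 in vehicle mouse J.

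In the injected hemisphere of the same mice, R55 against vehicle gave 141 genes (1.09%) at an unadjusted p under 0.05 and 0 at an adjusted p under 0.05, with 68 higher and 73 lower. The correlation of log₂ fold change with length was -0.132 there. Most of the genes above had smaller values on the injected side, with Tsc22d3 at 0.25, Dhrs7 at 0.054, Fkbp7 at 0.044, Xkr4 at -0.16, Pvalb at 0.13 and Cacna1e at -0.45. Ifit3 at 0.80, Spp1 at 0.91 and Hmox1 at 0.65 were closer to their contralateral values, and the interferon list had a median of 0.24 against 0.29. Over all tested genes, the injected libraries lay above without overlap in 48 (0.37%) and below in 75 (0.578%). Of the 184 genes above without overlap in the contralateral hemisphere, 2 (1.09%) were so in the injected hemisphere too, and of the 177 below, 15 (8.47%). Both hemispheres come from the same mice.

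The difference between hemispheres was tested directly. As the interaction of R55 with hemisphere over 27 libraries, 239 genes (1.84%) had an unadjusted p under 0.05 and 0 an adjusted p under 0.05. With the mouse as a block, which pairs the 2 hemispheres, 770 genes had an unadjusted p under 0.05 and again 0 an adjusted p under 0.05, the smallest being 0.806. The interaction was 0.43 for Tsc22d3, 0.47 for Dhrs7, 0.47 for Fkbp7, -0.75 for Xkr4 and -0.48 for Zfp697, the adjusted p of Zfp697 being 0.999. The larger contralateral values were thus not shown to differ from the injected ones.

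**Figure D5:**
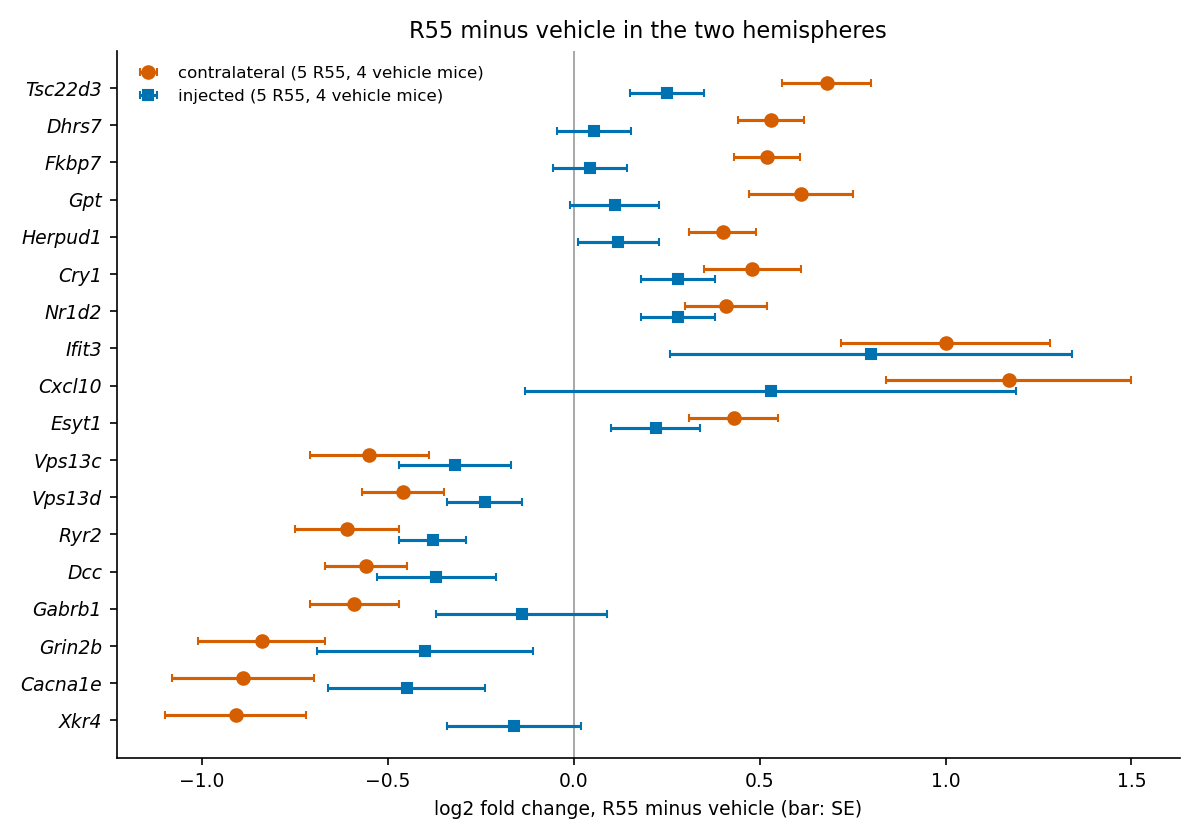
Log₂ fold change of R55 against vehicle (horizontal axis, bars show the SE) of selected genes in the contralateral (circles) and the injected hemisphere (squares), each from 5 R55 and 4 vehicle mice. Tsc22d3 stands at 0.68 and 0.25, and Xkr4 at -0.91 and -0.16.

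The contralateral hemisphere of the 4 mice given R33, a related thiophene thiourea, was set against the same 4 vehicle mice, so that both comparisons share their controls and their values are given side by side only. Tsc22d3 was at 0.50 with R33 and 0.68 with R55, Xkr4 at -0.44 and -0.91, Cacna1e at -0.65 and -0.89, Grin2b at -0.68 and -0.84, and Pvalb at 0.57 and 0.81. Cxcl10 was at 0.32 and 1.17, and the interferon list had medians of -0.13 and 0.29. The length slope gave a correlation of -0.301 with R33 and -0.587 with R55.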

How the data were processed

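RNA was measured in cortex of the uninjected hemisphere of 5xFAD mice. The authors prepared stranded mRNA libraries, aligned reads to GRCm39 with HISAT2, deposited FPKM and used DESeq2 for their own tests. The tool that counted fragments is not given in the sources used here. Of 32 libraries in the table, 5 belong to no sample used and were left out. Of the values, 99.9% were whole multiples of 1 fragment within 0.01, which gave each library's depth and each gene's length.

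Groups came from the treatment and hemisphere labels, and each library of a group is a separate mouse. Limma 3.58.1 in R 4.3.3 was fitted to log2(FPKM + 1) of the 13 contralateral libraries, the 4 of R33 serving only to estimate the spread, with treatment as the only term, an intensity trend and Benjamini-Hochberg adjustment over the 12976 genes whose mean reached 1 FPKM in 27 libraries. Calls were made at an adjusted p under 0.05. The interaction with hemisphere used all 27 libraries. Hemispheres are paired by mouse, and their deviations correlated between -0.0787 and 0.648 over 13 pairs (mean 0.394). The trend on gene length was removed per library with lowess (span 0.3). The code of the fit was run on simulated fragments with the same spread for every gene, which need not match the spread between these mice. That run is therefore no check of the values given here.

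The comparison, the gene lists and the tests were chosen with earlier results of these data known. Named genes were, per list, up to 4 members with the smallest unadjusted p, all members of lists of 5 or fewer, up to 10 genes per direction whose groups do not overlap, up to 5 per direction with the largest differences, genes the study's text names and cell type markers. Grm4, Napb, Erbb4, Lrp6 and further members given to complete a count of 5 or fewer were added after their values were seen. So were Dbp, Tef, Clock, Npas2, Arntl, Per1, Per2, Cry2 and Nr1d1. Some single genes are not reported here. Alternatives were the 9 libraries alone, all 27 with a modelled correlation, size factors, no filter, a pseudocount of 0.1, no intensity trend, the length trend removed, the label series as a covariate, mice with a 1-letter label, voom, and each mouse left out. Gene positions are from GRCm39, and promoter sequences from RefSeq on GRCm38.p6.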

Additional observations from a re-analysis of the deposited data

Results flagged for a closer look

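Of 326 groups of 4 or 5 mice examined (the genes and lists described, per treatment group), 24 (7.36%) held 1 library far from the others by Dixon's criterion, where chance flags about 5%. Vehicle mouse J was set apart by Ttr at 1109 FPKM (6.39 to 18.3 FPKM in the other vehicle mice), Vps13d at 6.68 FPKM (8.17 to 8.46), Sdf2l1 at 14.8 FPKM (8.95 to 9.49) and Ndufa6 at 161 FPKM (114 to 117). Its mean log2 levels, centred over the libraries, stood apart for choroid plexus at 2.29 (-0.90 to -0.37), for oxidative phosphorylation at 0.18 (-0.24 to -0.18) and for mural cells and fibroblasts at 0.31 (-0.24 to -0.19). So did the difference between the median log2 levels of long and short genes, at -0.15 (0.28 to 0.31).

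R55 mouse Q stood apart in Dst at 6.11 FPKM (9.68 to 11), Snord68 at 3.28 FPKM (0 to 0.813), the chaperone list at 0.25 (-0.034 to 0.028) and immediate early genes at 0.38 (0.0019 to 0.093). R55 mouse R stood apart in Atf4 at 87.7 FPKM (112 to 118), Lrp1 at 33.6 FPKM (19.2 to 22.6), Scarna2 at 1.75 FPKM (0.517 to 0.64) and the homeostatic astrocyte list at 0.58 (-0.16 to -0.0045). R55 mouse AA stood apart in Spp1 at 38.5 FPKM (6.02 to 14.6) and Hmox1 at 15.3 FPKM (4.48 to 6.82), and R55 mouse P in Arntl at 12.4 FPKM (9.85 to 10.4) and the striatal list at 0.53 (-0.22 to -0.10).

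Vehicle mouse M stood apart in Col1a2 at 1.23 FPKM (2.28 to 2.47). Vehicle mouse L stood apart in Erc1 at 7.59 FPKM (6.39 to 6.43), the PI3K-related kinases at 0.24 (0.16 in the next mouse) and the glucocorticoid list at -0.37 (-0.037 to 0.016).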

How the results depend on the processing

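No gene was called at an adjusted p under 0.05 except with all 27 libraries and a modelled correlation, where 2 were. The counts at an unadjusted p under 0.05 were less stable. With mice of a 1-letter label only, 348 genes were higher and 373 lower. With the length trend removed, 218 were lower. Leaving out 1 mouse gave 570 (without vehicle L) to 1790 (without vehicle J) higher genes and 397 (without R55 AB) to 821 (without R55 P) lower genes. Without R55 mouse R 1352 genes were higher. For the interaction, pairing the hemispheres with the mouse as a replicate block gave 770 genes at an unadjusted p under 0.05 in place of 239, and no filter on low genes gave 568. The block changed no call at an adjusted p under 0.05. Of the single genes, Clock (0.0011) and Dst (0.09) reversed with the length trend removed, while the cause of the trend was not tested. The medians of 12 lists of long genes moved toward 0 with that removal by more than the spread between mice. With 4 against 5 mice and depths of 15932197 to 38077031 fragments, differences of single genes that fall short of a call say nothing about their absence.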
